A study of Rattus norvegicus with 6 samples.

Results

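Synaptic vesicle and release machinery genes encode the proteins with which a nerve terminal stores transmitter in vesicles, docks and fuses them at the active zone, and retrieves their membrane. A fixed list of 34 such genes was matched by exact symbol to the gene table of a rat spinal cord series, and 33 of them were found among 30957 genes in all. Amph, which encodes the endocytic protein amphiphysin, was not matched and was not analysed here. The choice of members used no measured value of the comparison, although results of these data were already known when the list was made.

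Groups of adult Wistar rats were compared. In the bone cancer pain (BCP) group, living Walker 256 breast cancer cells, a rat line raised as ascites in Wistar rats, were placed in the marrow cavity of the left tibia. In the sham group heat-killed cells were placed there, so both groups had the operation and received cell material. Each group had 3 samples, taken at day 14 from the lumbar enlargement on the side of the tumour after the meninges had been stripped off. The tumour lay in the bone, so the samples hold the cord that receives input from that limb, with all of its neurons, glia and invading cells together. Nothing states whether a sample was 1 rat or a pool, and the p-values below measure only the spread between these samples. Ribosome-depleted total RNA was sequenced from each, and gene counts per library ran from 11779485 to 15004290.

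At a chemical synapse, synapsins tether vesicles in a reserve pool, and Rab3, RIM and Munc13 proteins bring them to the active zone and prime them. The SNARE proteins on vesicle and plasma membrane, syntaxin, SNAP-25 and synaptobrevin, then zip together, complexins clamp and assist them, and synaptotagmins trigger fusion when calcium enters. NSF with its SNAP adaptors takes spent SNARE complexes apart, and dynamin, amphiphysin and synaptojanin act in retrieving the membrane. In the spinal cord these proteins serve excitatory terminals, which load glutamate through vesicular glutamate transporters, and inhibitory terminals, which load GABA and glycine.

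The promoters of 5 members are shown because these genes span the results: Cplx1 and Vamp1 had the smallest p-values among the members, Syn1 is the classic vesicle gene, and Syt4 and Slc17a6 were not lower in BCP. Each is the RefSeq sequence on build GRCr8, from 250 bases before to 50 bases after the annotated start, written 5′ to 3′ along the gene. Capitals mark 3 short motifs found on either strand. These are the GC box GGGCGG, bound by Sp1-family factors, the cyclic AMP response element TGACGTCA, bound by CREB, and the CCAAT box CCAAT.
Cplx1: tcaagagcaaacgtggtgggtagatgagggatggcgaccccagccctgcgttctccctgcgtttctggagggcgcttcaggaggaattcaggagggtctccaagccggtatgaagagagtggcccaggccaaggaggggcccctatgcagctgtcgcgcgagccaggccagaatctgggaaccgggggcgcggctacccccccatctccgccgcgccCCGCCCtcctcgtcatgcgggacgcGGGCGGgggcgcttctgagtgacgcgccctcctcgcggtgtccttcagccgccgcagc
Vamp1: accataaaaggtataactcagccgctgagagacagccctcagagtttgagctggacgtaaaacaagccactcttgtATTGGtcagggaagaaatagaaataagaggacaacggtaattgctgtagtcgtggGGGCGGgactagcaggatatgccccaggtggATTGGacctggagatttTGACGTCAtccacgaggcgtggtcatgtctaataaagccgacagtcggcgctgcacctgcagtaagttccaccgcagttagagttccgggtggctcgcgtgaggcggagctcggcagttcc
Syn1: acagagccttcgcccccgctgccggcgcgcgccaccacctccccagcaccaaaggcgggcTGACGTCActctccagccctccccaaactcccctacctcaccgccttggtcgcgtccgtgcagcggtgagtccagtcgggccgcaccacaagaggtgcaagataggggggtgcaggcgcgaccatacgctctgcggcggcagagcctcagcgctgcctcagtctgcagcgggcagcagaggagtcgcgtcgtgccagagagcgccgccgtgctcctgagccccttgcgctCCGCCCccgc
Syt4: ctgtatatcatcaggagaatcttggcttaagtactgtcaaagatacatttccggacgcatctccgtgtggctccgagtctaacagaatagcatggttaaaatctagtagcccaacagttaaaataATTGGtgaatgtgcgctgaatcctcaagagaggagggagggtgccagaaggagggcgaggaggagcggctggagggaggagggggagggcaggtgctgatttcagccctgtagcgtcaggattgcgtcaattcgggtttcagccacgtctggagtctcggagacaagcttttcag
Slc17a6: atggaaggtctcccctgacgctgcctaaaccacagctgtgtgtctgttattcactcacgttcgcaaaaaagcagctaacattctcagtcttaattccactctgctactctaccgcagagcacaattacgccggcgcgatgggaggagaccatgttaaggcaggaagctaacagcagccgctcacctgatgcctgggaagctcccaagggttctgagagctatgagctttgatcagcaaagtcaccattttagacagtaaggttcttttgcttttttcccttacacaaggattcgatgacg
The windows lie at chr14:1328823-1329122 (plus strand) for Cplx1, chr4:159698644-159698943 (plus) for Vamp1, chrX:3725495-3725794 (plus) for Syn1, chr18:23320814-23321113 (minus) for Syt4 and chr1:110348197-110348496 (plus) for Slc17a6.

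Of the 34 listed genes, 30 had a promoter in the RefSeq table, and Syngr1, Syngr3, Rims2 and Snap25 had none. A GC box was found in 22 of the 30 promoters (73.3%), against 33.1% of all 33469 promoters of the same length. The member promoters also had more G and C, with a median of 65.8% against 51.7%, and a median of 22 CpG steps against 7. Among promoters of members that were lower in BCP, 17 of 20 held a GC box, and among those of tested members that did not pass, 4 of 8 did. Tested members without one in this window were Sv2b, Slc17a6, Syt4 and Synj1, which did not pass, and Sv2a, Syt2 and Dnm1, which were lower. The cyclic AMP response element was found in Syn1 and Vamp1 alone among the 30, or 6.67%, against 1.83% of all promoters. A CCAAT box was present in 10 of 30 (33.3%) against 37.5%, and the TATA box letters TATAAA were present in 0 of 30 against 14.2%. The element RE1, through which REST silences neuronal genes outside neurons, has a left part CAGCACC, held by 8 of 30 promoters (26.7%, against 6.78%), and a right part GGACAG, held by 7 (23.3%, against 21.7%). The 2 parts with 2 bases between them occurred in 0 of 30, against 0.0299% of all promoters. These matches describe letters in a window of 300 bases.

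The levels of the genes were compared with one another on a scale that corrects for length, the authors' FPKM (fragments per kilobase of exon, scaled to sequencing depth). In sham cord, 12 members stood above 100 FPKM and 19 between 10 and 100, and the median member was at 55.8 FPKM, against 9.32 for all tested genes. Snap25, the plasma membrane SNARE, had the highest level at 805 ± 24.3 FPKM (SD, n = 3), followed by the vesicle SNARE Vamp1 at 618 ± 15.6. Cplx1 at 366 FPKM (357 to 377 in the 3 libraries) and Syt11 at 346 ± 3.47 came next and were closer together, with Nsf at 306 ± 15.5 and Syp at 291 ± 11.5 overlapping each other in spread. The other synaptobrevin gene, Vamp2, was lower at 153 ± 3.49 FPKM. Among synaptotagmins, Syt11 and Syt2 (142 ± 7.43 FPKM) stood above Syt4 (51.6 ± 1.58) and Syt1 (34.0 ± 2.80). The lowest tested member was Stx1a at 6.61 ± 0.25 FPKM, below Erc2 at 11.5 ± 0.142. Slc17a7, which encodes the glutamate transporter VGLUT1 of cortical and primary afferent terminals, stood at 0.254 ± 0.139 FPKM in sham and 0.245 ± 0.0938 in BCP, while Slc17a6, which encodes VGLUT2, stood at 52.4 ± 1.42 and 54.8 ± 3.12. All 20 neuronal markers outside the synapse were also detected above the filter on low counts. That shows neuronal RNA, but it cannot tell the labelled cord from other neural tissue.

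**Figure D1:**
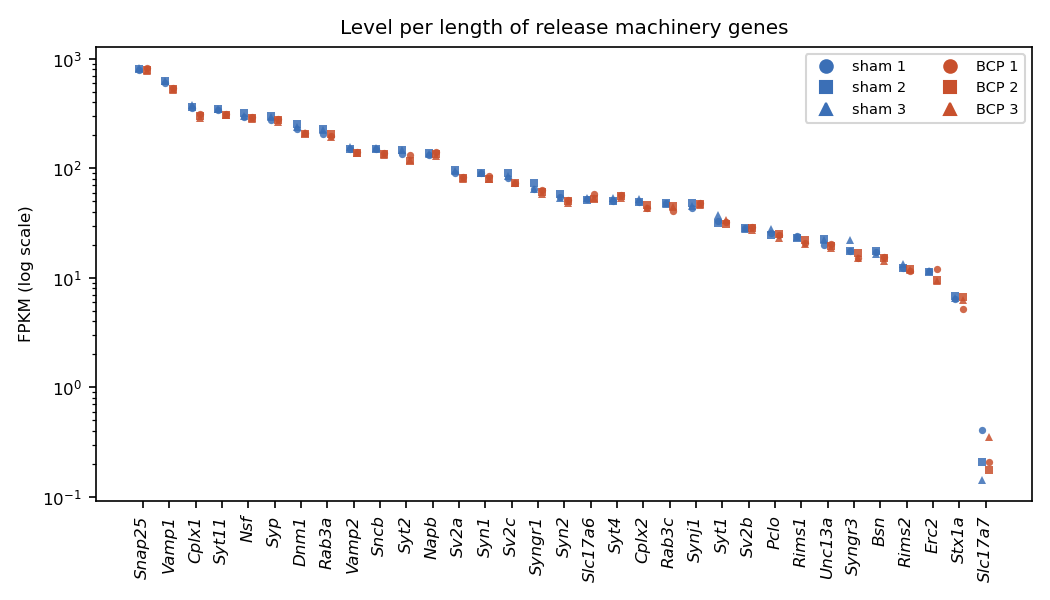
FPKM on a log axis of the 33 members in each of the 6 libraries, ordered by the mean of the 3 sham libraries (blue, sham; red, BCP; 1 marker shape for each replicate). Levels run from 805 FPKM for Snap25 to 6.61 for Stx1a, with Slc17a7 far below at 0.254.

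The main comparison asked whether these genes differed between BCP and sham cord. Counts were scaled to CPM, each count set against the total of its library multiplied by a scaling factor from edgeR (TMM). These factors were 0.982 to 0.989 in sham and 1.005 to 1.020 in BCP. Genes with low counts were removed, and 14908 genes were tested with edgeR's quasi-likelihood test, with Benjamini-Hochberg adjustment over all of them. In BCP cord, 23 of the 32 tested members were lower at an adjusted p under 0.05 and 0 were higher, while 12.1% of all tested genes were lower and 15.8% were higher. At an unadjusted p under 0.05 the count was 24, none of them higher. The member left out of the test was Slc17a7, with counts of 18, 10 and 7 in sham and 8, 8 and 15 in BCP. The changes were small. The median log2 fold change (log2FC, BCP over sham) of tested members was −0.19, a level 12.4% lower, against a median of −0.01 over all tested genes. Values ran from −0.34 for Cplx1 to 0.06 for Syt4. Under the study's stricter threshold, which also asks for more than a 2-fold change, 0 members were called, against 6.45% of tested genes.

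Standard errors of log2FC lay between 0.04 and 0.12, so that a fall of 8.06% (Nsf) was the smallest to pass and one of 20.7% (Cplx1) the largest. For 23 members every BCP library lay below every sham library in CPM, against 19.8% of all tested genes, and these were the same genes as the 23 that passed the test. Of the 32 members, 29 had a negative log2FC, against 52.3% of all tested genes. BCP replicate 1 was the mildest library, with 26 of 32 members above the BCP mean, and BCP replicate 3 was the strongest, with 3 of 32 above it. This was not particular to the members. Of the neuronal markers outside the synapse, 19 of 20 lay above the BCP mean in replicate 1 and 5 of 20 in replicate 3. For the oligodendrocyte markers described below these counts were 12 of 12 and 1 of 12. Replicate 2 was also at 1 of 12 there, so replicate 3 did not stand apart from it. Without BCP replicate 3, 15 members were called and 8.59% of all tested genes were lower. With scaling by library size alone, 15 were called and 8.43% of all genes were lower, and the share of lower among all called genes moved from 43.4% to 32.0%. With either scaling, none was higher.

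**Figure D2:**
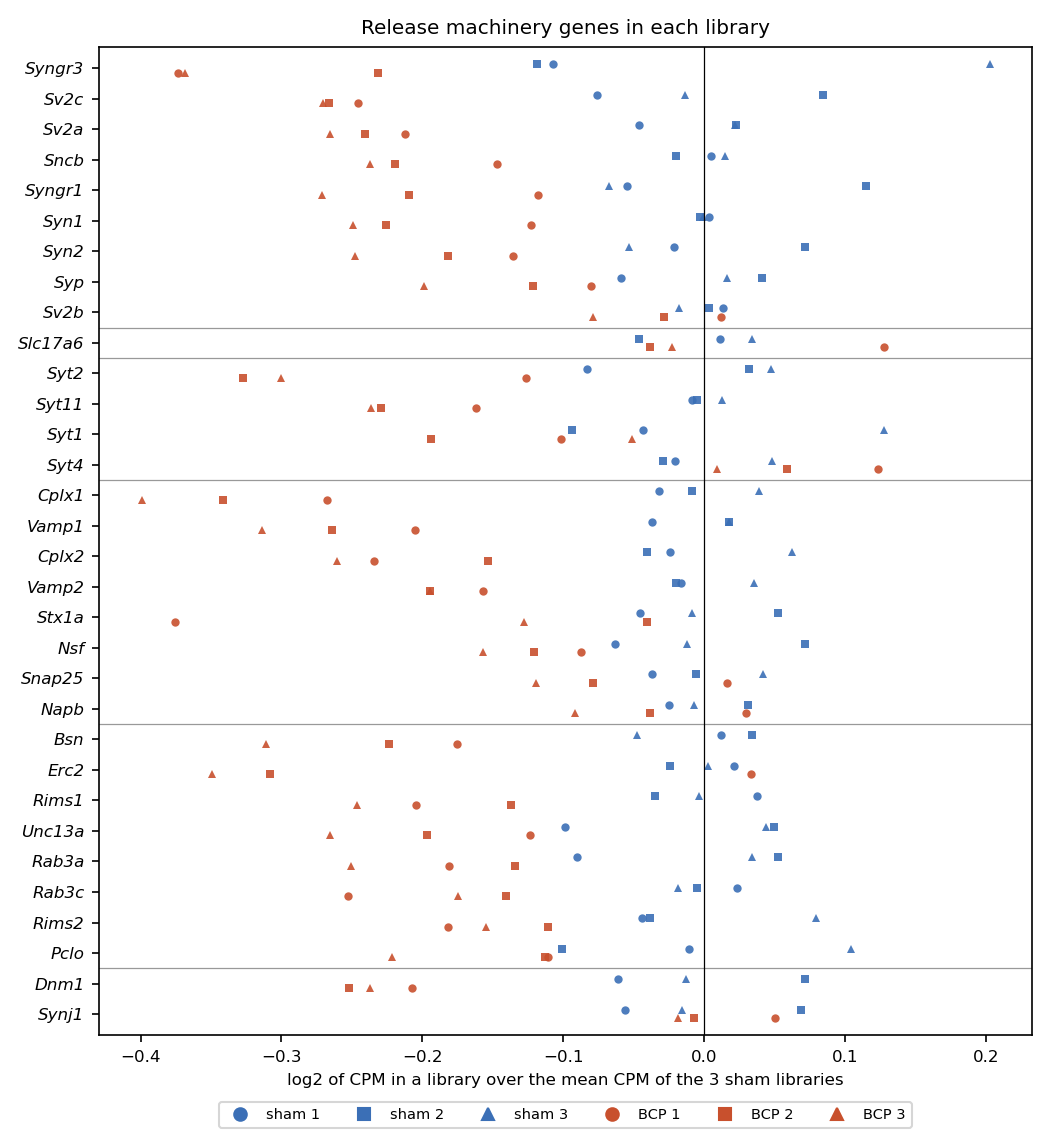
CPM of the 32 tested members in each library, as log2 of the ratio to the mean of the 3 sham libraries; rows are grouped by role (from the top: vesicle proteins, Slc17a6, synaptotagmins, SNARE proteins and partners, Rab3 and active zone, endocytosis) and ordered by log2FC. For 23 genes the 3 red BCP points all lie left of the 3 blue sham points, and in most rows the red circle of BCP replicate 1 lies nearest to them.

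**Figure D3:**
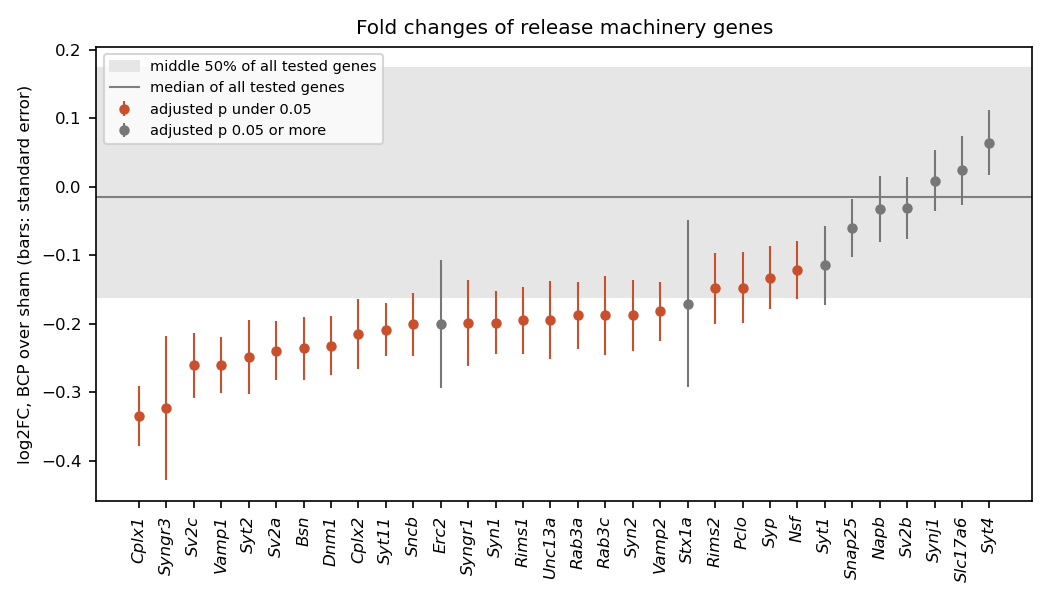
Log2FC (BCP over sham) of the 32 tested members with standard error bars, ordered from lowest to highest; red points have an adjusted p under 0.05. The grey line and band are the median (−0.01) and the middle 50% of all 14908 tested genes, and 23 red points lie below the line.

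Among proteins of the vesicle itself, 8 of 9 genes were lower, against 12.1% of all tested genes, and only Sv2b was not. Sv2a, which encodes the most widespread of the SV2 glycoproteins and the binding site of levetiracetam, stood at 393.8, 412.9 and 412.9 CPM in sham and at 351.0, 344.1 and 338.1 in BCP. Its log2FC was −0.24 ± 0.04 (SE, adjusted p = 0.00023, edgeR). Sv2c gave 244.8, 273.6 and 255.6 CPM in sham and 217.6, 214.5 and 213.9 in BCP, a log2FC of −0.26 ± 0.05 (adjusted p = 0.000293). For both genes each BCP library lay below all of the sham libraries, and the BCP values of Sv2c were nearly equal. The third paralog, Sv2b, gave 191.6, 190.3 and 187.4 CPM in sham and 191.3, 186.1 and 179.7 in BCP. Its groups overlapped, and its log2FC was −0.03 ± 0.05 (adjusted p = 0.669).

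Syn1, which encodes the phosphoprotein that tethers vesicles to actin, varied least in sham, at 293.4, 292.1 and 292.5 CPM, and was at 268.7, 250.3 and 246.3 in BCP. Its log2FC was −0.20 ± 0.05 (adjusted p = 0.00232), and that of its paralog Syn2 was −0.19 ± 0.05 (adjusted p = 0.00942). Sncb, for β-synuclein, gave 204.1, 200.6 and 205.5 CPM in sham and 183.7, 174.7 and 172.6 in BCP, with a log2FC of −0.20 ± 0.05 (adjusted p = 0.00226). Synaptophysin, the most abundant of these 9 genes by FPKM, changed less. Syp had 398.4, 427.1 and 419.7 CPM in sham and 392.6, 381.6 and 361.6 in BCP (log2FC −0.13 ± 0.05, adjusted p = 0.0353). The highest BCP library of Syp lay just under the lowest sham library, and its call held in 6 of 13 alternatives. It ended with the likelihood ratio test (adjusted p = 0.193), with library size scaling and with a replicate block. The call of Syp also ended without sham replicate 2 or 3 or BCP replicate 2 or 3 (adjusted p up to 0.166). Its relatives, the synaptogyrins, were lower too, with Syngr3 at −0.32 ± 0.11 (adjusted p = 0.0263) and Syngr1 at −0.20 ± 0.06 (adjusted p = 0.0215). Syngr3 had low counts, 21.96, 21.79 and 27.23 CPM in sham against 18.26, 20.15 and 18.33 in BCP, and a single sham library, replicate 3, stood apart from the other two. Without it the log2FC of Syngr3 was −0.21 (adjusted p = 0.193), and the call also ended with DESeq2, with library size scaling and without BCP replicate 1 or 3. The call of Syngr1 ended in 5 of 13 alternatives, among them those without sham replicate 2 (adjusted p = 0.139) or BCP replicate 2 or 3, and that of Syn2 without sham replicate 2 or BCP replicate 3.

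The tested glutamate transporter gene did not pass the test. Slc17a6 gave 221.7, 213.0 and 225.2 CPM in sham and 240.4, 214.2 and 216.5 in BCP, with overlapping groups and a log2FC of 0.02 ± 0.05 (adjusted p = 0.775). The sign turned negative without BCP replicate 1, the highest library, at −0.02, and with upper-quartile scaling, at −0.01. The transporter of inhibitory terminals, Slc32a1 (VGAT, which loads GABA and glycine), is not a member but belongs to the wider list described below, and it was lower: 89.07, 95.96 and 98.72 CPM in sham and 74.57, 80.61 and 72.62 in BCP, a log2FC of −0.32 ± 0.06 (adjusted p = 0.000434). The ratio of Slc17a6 to Slc32a1 in FPKM was 1.34 ± 0.0814 in sham and 1.70 ± 0.164 in BCP (SD, n = 3 each). That pair was picked after its values were seen, so it is given without a test. Slc32a1 had been called lower and Slc17a6 had not, so the higher ratio in BCP is not a separate result.

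Of the synaptotagmins, 2 of 4 were lower, against 12.1% of all tested genes. Syt2, the fast calcium sensor typical of hindbrain and spinal terminals, stood at 421.0, 456.1 and 461.0 CPM in sham and 408.6, 355.5 and 362.3 in BCP (log2FC −0.25 ± 0.05, adjusted p = 0.00179). BCP replicate 1 was close to the sham range and the other two were far below it. Syt11, a synaptotagmin that does not bind calcium, gave 1486, 1489 and 1508 CPM in sham and 1335, 1275 and 1268 in BCP (log2FC −0.21 ± 0.04, adjusted p = 0.000352), with a wide gap between groups. Syt1, the fast sensor of forebrain synapses, did not pass, with 172.7, 166.7 and 194.3 CPM in sham and 165.8, 155.6 and 171.7 in BCP (log2FC −0.11 ± 0.06, adjusted p = 0.16). Syt4, which lacks the usual calcium response and sits on dense-core vesicles, stood at 201.0, 199.8 and 210.8 CPM in sham and at 222.1, 212.4 and 205.2 in BCP. Its log2FC was 0.06 ± 0.05 (adjusted p = 0.348), the highest of any member, with overlapping groups.

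Of the SNARE proteins, complexins and the disassembly machinery, 5 of 8 genes were lower, against 12.1% of all tested genes. Cplx1, at chr14:2194933-2226598 (build Rnor_6.0), encodes the complexin of fast synapses and had the largest fall and the smallest p-value of all members. Its libraries stood at 778.6, 791.2 and 817.8 CPM in sham and at 661.3, 628.0 and 603.5 in BCP. The log2FC was −0.34 ± 0.04 (adjusted p = 6.44e-06), and the gap between the groups was wider than the range within either. Cplx2 gave 143.6, 142.0 and 152.5 CPM in sham and 124.1, 131.3 and 121.9 in BCP (log2FC −0.22 ± 0.05, adjusted p = 0.00315). The vesicle SNAREs were both lower. Vamp1, at chr4:157726941-157733643, gave 1610, 1672 and 1672 CPM in sham and 1433, 1376 and 1329 in BCP (log2FC −0.26 ± 0.04, adjusted p = 5.36e-05). Vamp2 gave 334.7, 333.8 and 346.9 in sham and 303.6, 295.7 and 295.7 in BCP (log2FC −0.18 ± 0.04, adjusted p = 0.00272).

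The partners of the vesicle SNAREs on the plasma membrane did not pass the test. Snap25 gave 1840, 1880 and 1943 CPM in sham and 1909, 1787 and 1738 in BCP, a log2FC of −0.06 ± 0.04 (adjusted p = 0.334) with BCP replicate 1 inside the sham range. Stx1a, at 14.03, 15.02 and 14.39 CPM in sham and 11.16, 14.08 and 13.25 in BCP, had a log2FC of −0.17 ± 0.12 (adjusted p = 0.337) and the widest standard error of the members. Nsf, the ATPase that separates used SNARE complexes, was lower by little, at 1125, 1235 and 1165 CPM in sham and 1106, 1081 and 1054 in BCP (log2FC −0.12 ± 0.04, adjusted p = 0.0392). That call held in 6 of 13 alternatives. It ended with the likelihood ratio test (adjusted p = 0.246), with library size scaling and with a replicate block. The call of Nsf also ended without sham replicate 2 or 3 or BCP replicate 2 or 3 (adjusted p up to 0.193). Its neuronal adaptor Napb gave 157.5, 163.8 and 159.5 CPM in sham and 163.6, 156.1 and 150.4 in BCP (log2FC −0.03 ± 0.05, adjusted p = 0.674), again with overlap.

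Among genes of the active zone scaffold and its Rab3 proteins, 7 of 8 were lower, against 12.1% of all tested genes. The log2FC values of all 8 ran from −0.24 to −0.15. Bsn, for the giant scaffold bassoon, gave 387.3, 393.3 and 371.7 CPM in sham and 340.1, 329.0 and 309.6 in BCP (log2FC −0.24 ± 0.05, adjusted p = 0.000581). Its relative Pclo, for piccolo, was at 447.2, 420.2 and 484.4 CPM in sham and 417.3, 416.6 and 386.5 in BCP, a smaller log2FC of −0.15 ± 0.05 (adjusted p = 0.0395) with sham replicate 2 close to the BCP range. The call of Pclo held in 4 of 13 alternatives; of the fits without 1 library it held only without sham replicate 2, and without sham replicate 3 the log2FC was −0.09 (adjusted p = 0.253). The RIM scaffolds, which link Rab3 to calcium channels, were lower as well. Rims1 had a log2FC of −0.19 ± 0.05 (adjusted p = 0.00463) and Rims2 of −0.15 ± 0.05 (adjusted p = 0.0388). The call of Rims1 held in all 13 alternatives, while that of Rims2 held in 5. The latter ended with DESeq2 (adjusted p = 0.0893), the likelihood ratio test, library size scaling and a replicate block. It also ended without sham replicate 3 or any 1 of the BCP libraries. Unc13a, the priming factor Munc13-1, had a log2FC of −0.19 ± 0.06 (adjusted p = 0.0143). The vesicle GTPases Rab3a and Rab3c both fell by 0.19 on the log2 scale, with standard errors of 0.05 and 0.06 (adjusted p = 0.00623 and 0.0185). The calls of Unc13a and Rab3c each held in 9 of 13 alternatives, and both ended with library size scaling. That of Unc13a also ended without sham replicate 2 or 3 or BCP replicate 3. That of Rab3c also ended with the likelihood ratio test and without sham replicate 1 or BCP replicate 1. Erc2, the scaffold CAST, was the gene that missed, with 37.98, 36.81 and 37.50 CPM in sham and 38.30, 30.23 and 29.38 in BCP (log2FC −0.20 ± 0.09, adjusted p = 0.125). Its BCP replicate 1 stood above every sham library while the other two stood well below, and without that library its adjusted p was 0.00864.

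In membrane retrieval, Dnm1, the neuronal dynamin that pinches vesicles off, stood at 796.2, 872.9 and 823.3 CPM in sham and 719.4, 697.7 and 704.9 in BCP (log2FC −0.23 ± 0.04, adjusted p = 0.000327). The groups were well apart. Synj1, for the lipid phosphatase that sheds the clathrin coat, gave 449.0, 489.6 and 461.7 CPM in sham and 483.5, 464.4 and 460.8 in BCP, with a log2FC of 0.01 ± 0.04 (adjusted p = 0.915). Its log2FC was negative without sham replicate 1, without sham replicate 3 or without BCP replicate 1, and with upper-quartile scaling.

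To compare paralogs directly, the ratio of each pair was taken within each library from FPKM, which removes any difference in scaling between libraries. None of the 16 pairs passed the test: with 3 libraries a group, the exact two-sided permutation test cannot go below p = 0.1, and the smallest adjusted p over the 16 was 0.267. The 6 pairs that reached that limit of the exact test are given as values, and their direction depends on which gene is the numerator. Syt2 to Syt4 went from 2.76 ± 0.119 in sham to 2.22 ± 0.105 in BCP, and Syt11 to Syt4 from 6.70 ± 0.147 to 5.54 ± 0.0913 (SD, n = 3 each). Sv2a to Sv2b went from 3.33 ± 0.12 to 2.88 ± 0.0376, and Sv2c to Sv2b from 3.05 ± 0.179 to 2.60 ± 0.0606. In these 4 pairs the denominator, Syt4 or Sv2b, was a gene that had not passed the test, and the pairs that share it are not independent. The others were Vamp1 to Vamp2, from 4.04 ± 0.093 to 3.82 ± 0.0956, and Cplx1 to Cplx2, from 7.34 ± 0.146 to 6.76 ± 0.375. Among the pairs whose ratios overlapped between groups were Syt2 to Syt1 (4.19 ± 0.323 and 3.81 ± 0.296), Rab3a to Rab3c (4.59 ± 0.303 and 4.60 ± 0.235) and Syn1 to Syn2 (1.64 ± 0.0749 and 1.62 ± 0.033).

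A wider list of 71 other release machinery genes, sorted by the same roles, was described beside the members. Of its 66 tested genes, 22 were lower and 0 were higher, 60 had a negative log2FC, and the median was −0.17. With upper-quartile scaling 34 were lower, with library size scaling 2 were higher and 15 lower, and without sham replicate 2 these counts were 1 and 14. Among the lower genes with the smallest p-values were Bin1, Scamp5, Sh3gl2, Slc32a1 and Syt3. Bin1, a relative of amphiphysin, had a log2FC of −0.25 ± 0.05 (adjusted p = 0.000266) and Sh3gl2, for endophilin A1, one of −0.26 ± 0.05 (adjusted p = 0.000427). Scamp5, a vesicle membrane protein gene, was at −0.26 ± 0.05 (adjusted p = 0.000393) and Syt3 at −0.28 ± 0.06 (adjusted p = 0.00145). By role, beside 12.1% of all tested genes, 5 of 9 tested genes for vesicle proteins were lower, 1 of 1 for transmitter transporters, 3 of 11 for synaptotagmins and related sensors, 3 of 11 for SNARE partners, 3 of 20 for the active zone and 7 of 14 for endocytosis. None went past 2-fold in either direction. In endocytosis the ubiquitous dynamin Dnm2 had a log2FC of 0.14 ± 0.06 (adjusted p = 0.0666), the highest on the list, beside −0.23 for the neuronal Dnm1.

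Other groups of genes moved in the same libraries, and these are given for comparison. Of the 20 markers of neurons outside the synapse, 14 were lower and 0 higher. Over all tested genes, here and for the lists that follow, 12.1% were lower and 15.8% higher. The median log2FC of these markers was −0.19, the same to 2 decimals as that of the members. Rbfox3, for the nuclear protein NeuN, had the largest fall among them at −0.34 ± 0.07 (adjusted p = 0.00134), beside −0.19 for Map2 and −0.31 for Nefm. Of the 12 tested genes of the postsynaptic density, 7 were lower and 0 higher, with a median of −0.21. Markers of inhibitory neurons gave 3 of 6 lower (median −0.17, with Slc32a1 lowest), and cholinergic markers 2 of 4 (median −0.19, with the largest value for Isl1 at 0.22, adjusted p = 0.594). No list was tested against another, so none of these medians is shown to differ from that of the release genes. The summed CPM of the members was 13380 to 13896 in sham and 11834 to 12628 in BCP, 11.0% lower in the mean, and that of the neuronal markers was 13750 to 14153 and 11401 to 12657, 13.9% lower. As shares of all gene counts, the members made up 1.31% to 1.37% of a sham library and 1.21% to 1.27% of a BCP library.

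Lists of several glial and immune markers had larger changes. Each count below stands beside 12.1% of all tested genes lower and 15.8% higher. All 12 oligodendrocyte markers were lower (median −0.39, Mbp at −0.56), and their summed CPM went from 41278 to 46746 in sham to 29793 to 33105 in BCP. Of 13 microglial markers 10 were higher and 0 lower (median 1.84, Cd68 at 3.66), with sums of 289.6 to 385.4 CPM in sham and 1027 to 1264 in BCP. All 7 tested T cell markers were higher, beside 15.8% of all tested genes. The sums of the list went from 6.08 to 6.64 CPM in sham up to 49.3 to 56.5 in BCP. Cd3e stood at no more than 0.0676 CPM in sham. A gene so low in sham passed the filter on low counts only through the BCP libraries, so this count was partly fixed by the filter. Astrocyte markers were mixed, with 5 lower and 1 higher of 10, the last being Gfap at 0.80 ± 0.07 (adjusted p = 5.27e-05), and sums of 8428 to 8721 and 9303 to 11461 CPM. Aqp4 among them had a log2FC of 1.53 (adjusted p = 0.342) that rested on BCP replicate 1, at 2415 CPM against 353.6 to 379.0 in the other 5 libraries. Genes of the dorsal root ganglion and nerve root gave 2 of 7 lower (median −0.41), and their sums were 300.3 to 320.7 and 217.8 to 266.3 CPM. Of skeletal muscle markers 1 of 3 tested was lower (Tnnc2, −1.30), with Ckm at 3 counts or fewer per library. The part of these shifts in the result for the release genes was not tested. In RNA of whole tissue, fewer cells of a type and less RNA per cell cannot be told apart, nor can either be told from a larger share of RNA from other cells.

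**Figure D4:**
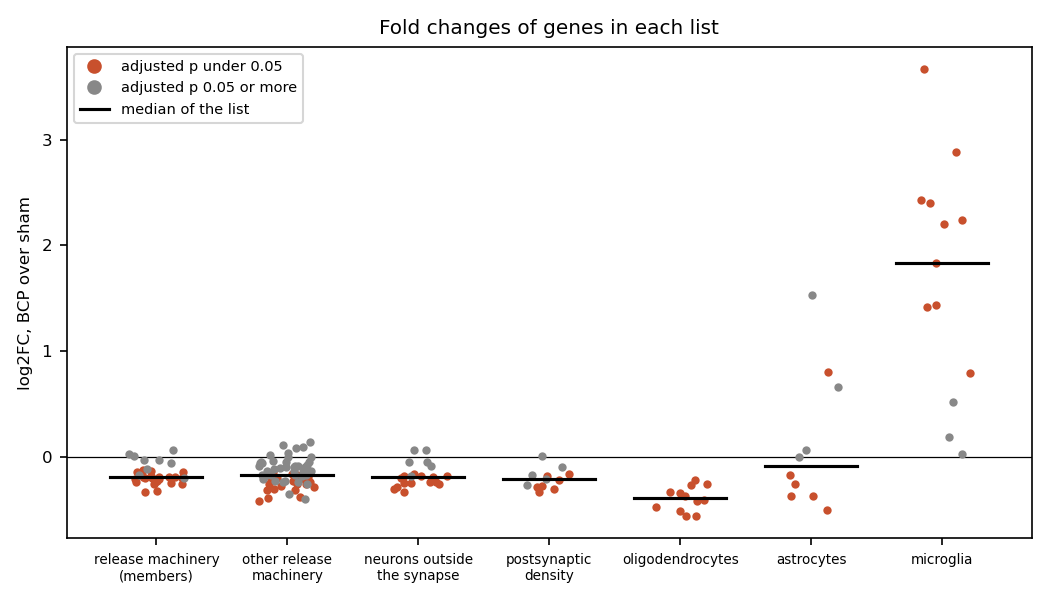
Log2FC (BCP over sham) of each tested gene in 7 lists, with a black bar at the median of each list; red points have an adjusted p under 0.05. The release machinery members, the other release genes, neuronal and postsynaptic lists lie in a narrow band with medians from −0.21 to −0.17, the oligodendrocyte list lies lower at −0.39 and the microglial list higher at 1.84.

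**Figure D5:**
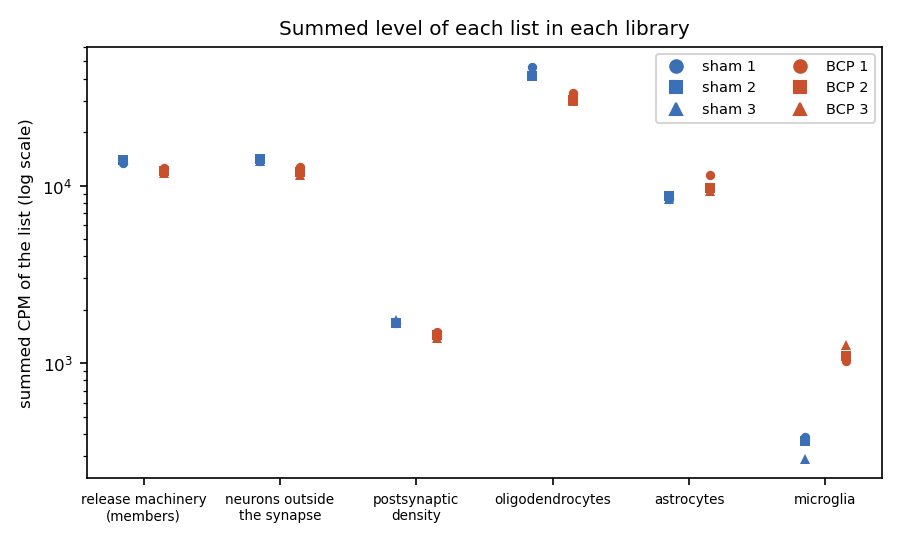
Summed CPM of the genes of 6 lists in each of the 6 libraries, on a log axis (blue, sham; red, BCP; 1 marker shape for each replicate). The members go from 13380 to 13896 CPM in sham to 11834 to 12628 in BCP, a shift that is small beside that of the microglial markers, from 289.6 to 385.4 up to 1027 to 1264.

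The series also holds a table of long non-coding RNA (lncRNA) transcripts, which were looked up within 10 kb of the members, the window the study uses for neighbours. Of 74 such transcripts at 26 members, 50 at 18 members passed the filter on low counts. None reached an adjusted p under 0.05 by edgeR, while 1.97% of the 12157 tested lncRNAs did. At an unadjusted p under 0.05 there were 9, of which 8 were lower, against 13.3% of all tested lncRNAs, and DESeq2 also gave 0 at the adjusted threshold. Of the 50, 36 had a negative and 14 a positive log2FC, with a median of −0.12 against −0.01 for all tested lncRNAs. The smallest p-values belonged to a pair at Cplx2 and to a transcript at Syt2. At Cplx2, NONRATT012808.2 (chr17:10753862-10755352, beside the gene) had counts of 1615, 1869 and 1901 in sham and 1319, 1576 and 1313 in BCP, with a log2FC of −0.21 ± 0.06 (adjusted p = 0.186). NONRATT012809.2 (chr17:10755647-10766259), which overlaps Cplx2, had a log2FC of −0.25 ± 0.08 (adjusted p = 0.188). At Syt2, NONRATT008235.2 (chr13:51579677-51581940, just beyond the gene) had a log2FC of −0.15 ± 0.05 (adjusted p = 0.192). The log2FC of Cplx2 itself was −0.22 and that of Syt2 was −0.25. Of the 50 tested transcripts, 30 overlapped the span of their gene, and since the use of strand in counting is not given, reads of a gene and of a transcript across it cannot be told apart.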

How the data were processed

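RNA was measured in 6 samples of ipsilateral lumbar cord, 3 sham and 3 BCP. The authors mapped reads to Rnor_6.0 with HISAT2 2.0.4 and computed FPKM with StringTie 1.3.0, per the labels and methods. They deposited raw gene and lncRNA counts beside FPKM per library, with coordinates. The program that made the counts, and its use of strand, are not given in the sources used here. Kits were stranded.

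From the deposited counts, edgeR 4.0.16 (R 4.3.3) computed TMM-scaled CPM, removed low genes by filterByExpr and fitted a robust quasi-likelihood model of condition. P-values were adjusted over all 14908 genes tested, or 12157 lncRNAs. A call is an adjusted p under 0.05. Standard errors of edgeR values were derived, as the absolute log2FC divided by the square root of the test statistic. The fit was tested on simulated data with 200 changed features, each changed by 2-fold or more. That test did not cover changes as small as those of the members. Deposited FPKM served levels and ratios within a library only. Alternatives were DESeq2 1.42.0, a likelihood ratio test, upper-quartile or library size scaling, other count filters, a replicate block, and leaving out each library. Within groups, library pairs differed by more than counting noise (chi-square per degree of freedom 3.48 to 6.04). The biological coefficient of variation was 7.72%.

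All members are named. Of other release genes, those with the 6 smallest p in each direction among the called are named, with any past 2-fold, of context lists the largest change and up to 3 markers, and of lncRNAs the called or else the 3 smallest p. Some genes that this rule names are not reported here. Exceptions, chosen after their values were seen, are Dnm2 and the Slc17a6 to Slc32a1 ratio. Members and lists were chosen with earlier results of these data known. Not matched by name, and not analysed here, were Amph, Slc18a3 and Myh2. Promoters came from RefSeq (GRCr8), read apart from the coordinates in Rnor_6.0.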

Additional observations from a re-analysis of the deposited data

How the results depend on the processing

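The count of 23 members lower in BCP was 15 with library size scaling, 15 without BCP replicate 3 and 15 to 21 over the 6 fits that each left out 1 library. It was 20 by DESeq2, 17 by the likelihood ratio test, and 23 with upper-quartile scaling, with no filter and with at least 10 counts in every library. The shares of all tested genes called lower were 12.1% in the main fit, 9.43% by DESeq2 and 9.2% by the likelihood ratio test. They were 16.1% with upper-quartile scaling, 8.43% with library size scaling, 8.82% with no filter and 12.1% with at least 10 counts. Over the fits without 1 library they ran from 8.14% to 11.6%. No alternative called a member higher or past 2-fold, or called a lncRNA at a member. Of the 23 called members, 14 were called in all 13 alternatives: Cplx1, Cplx2, Vamp1, Vamp2, Sv2a, Sv2c, Syn1, Sncb, Syt2, Syt11, Rims1, Bsn, Rab3a and Dnm1. The median log2FC of members ran from −0.23 with upper-quartile to −0.15 with library size scaling, where the median of all genes was −0.05 and 0.03. The count of other release genes lower, 22, was 34 with upper-quartile scaling and 14 to 24 over the fits without 1 library, lowest without sham replicate 2. Those higher, 0, were 2 with library size scaling and 0 to 1 without 1 library. Of the members, 4 with log2FC near 0 changed sign. Napb was at 0.00763 and Sv2b at 0.00927 with library size scaling. With upper-quartile scaling Slc17a6 was at −0.0114 and Synj1 at −0.0267. Over fits without 1 library Slc17a6 ran from −0.0234 to 0.0563 and Synj1 from −0.0194 to 0.0433. The cause of these shifts was not tested.

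With the replicate number as a replicate block, 19 members and 19 other release genes were lower and 0 higher, beside 10.7% of all tested genes lower. The labels do not state whether the numbers pair the samples. Deviations of samples with the same number correlated at −0.11, 0.04 and −0.04, and those with different numbers at −0.12 to 0.14. These values cannot show whether samples of the same number shared a batch.

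With 3 libraries a group, small changes of genes with low counts, such as Stx1a, Syngr3 and Erc2, had standard errors of 0.09 to 0.12 on the log2 scale. Slc17a7 was too low to test.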
